A study of Mus musculus with 9 samples.

Results

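Mitochondrial ribosomal protein genes encode the protein part of the ribosome that works inside mitochondria. They were taken here as every gene for which the array's platform annotation named a single symbol beginning Mrpl or Mrps followed by a number. That rule gave 74 of the 22071 gene symbols on the array, 45 named Mrpl and 29 named Mrps, with 713 probe sets. Of these, 72 genes entered the gene test among 12646 genes in all. Total RNA of C2C12 cells, an established mouse myoblast line, was measured on exon arrays, whose probe sets each read a piece of 1 exon or transcript. The groups were cells given an siRNA against Cugbp1, cells given an siRNA against Mbnl1, and cells given a control siRNA, with 3 arrays each. All 9 arrays came from the same line in DMEM with 10% fetal bovine serum, with RNA taken 48 h after the treatment and 100 ng used per array. Cugbp1 is the older name of Celf1, and both targets encode RNA-binding proteins with roles in alternative splicing and mRNA stability. The sources used here do not say how many siRNAs were used per target or whether replicates came from separate cultures, so p-values measure the spread between arrays, which may be technical.

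The mitochondrial ribosome translates the few mRNAs made from the mitochondrial genome, all of them for subunits of the respiratory chain and the ATP synthase. Its rRNAs come from the mitochondrial genome too, but every one of its proteins is encoded in the nucleus, made in the cytosol and imported. Some of these proteins have a homologue in the bacterial ribosome and others exist only in mitochondria. Together they form a small subunit, which decodes the mRNA, and a large subunit, which joins amino acids and holds the exit tunnel. Muscle relies on this machinery because its respiratory chain carries much of the energy supply.

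Values below are log2 intensities of a gene, summarised over its probe sets, and changes are differences of group means on that log2 scale. A gene was called when its Benjamini-Hochberg adjusted p from limma, over all 12646 genes, was under 0.05. The median gene of the family had 8 probe sets and the range was 3 to 14. Mrps30 and Mrps18a, named for the small subunit, belong to the large one and were counted there. Mrps36, since recognised as a component of the 2-oxoglutarate dehydrogenase complex, was counted in neither, which left 26 small-subunit and 45 large-subunit genes tested. Mrpl23, with 1 probe set, and Mrpl27, with 1 of 2 probe sets above the filter on weak signals, were not tested. Mrpl23 read 7.01, 7.11 and 6.93 with Cugbp1 siRNA, 7.20, 7.08 and 6.51 with Mbnl1 siRNA, and 7.32, 7.24 and 6.93 with control siRNA. The Mrpl27 probe set above the filter read 10.58, 10.47 and 10.22 with Cugbp1 siRNA, 10.37, 10.19 and 10.13 with Mbnl1 siRNA, and 10.22, 10.57 and 10.46 with control siRNA. In both the arrays of the groups overlapped.

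The targeted genes were low on the arrays labelled for them. Celf1 was at 8.67 ± 0.12 with Cugbp1 siRNA, 10.06 ± 0.06 with Mbnl1 siRNA and 10.13 ± 0.02 with control siRNA, and Mbnl1 at 11.50 ± 0.06, 10.11 ± 0.07 and 11.45 ± 0.01 in the same order (SD, n = 3). Median intensities of the arrays were 42.3 to 42.9 on the 6 siRNA arrays for the targets and 43.6 to 43.8 on the control arrays. All 7 myoblast markers listed (Myod1, Myf5, Des, Cdh15, Cav1, Msc and Vim) passed the filter. Of 13 markers of blood, endothelial, epithelial and neural cells, 8 passed it, and Cdh5, Kdr, Epcam, Rbfox3 and Snap25 did not. The summed intensity of those 8 was 1697 to 1915 with Cugbp1 siRNA, 1803 to 1883 with Mbnl1 siRNA and 2142 to 2241 with control siRNA. Of these 8, limma called 6 lower with Cugbp1 siRNA and 5 lower with Mbnl1 siRNA than with control siRNA. Of the 7 myoblast markers, Cav1, Cdh15 and Myod1 were called higher with Cugbp1 siRNA, and Cav1 and Myf5 lower with Mbnl1 siRNA. Among all genes 26.0% were called higher with Cugbp1 siRNA and 14.6% lower with Mbnl1 siRNA. The other-cell markers and the array medians thus move with the groups, and their part in the results was not tested.

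Promoter sequence is shown first, for 4 genes whose values are described below, because nuclear control of this family is usually traced to factors that bind near the start of transcription, such as NRF1, GABP and YY1. Mrpl1, Mrpl45 and Mrps22 were among the genes higher with both siRNAs, and Mrpl32 was lower with both. RefSeq's promoter table for GRCm38.p6 held 65 of the 74 genes, with 71 start sites. Each line gives 250 bases before the start, 5′ to 3′ on the gene's strand, in lower case. Capitals mark matches on either strand to the palindromic NRF1 site, the NRF1 core (TGCGCA), an ETS and GABP site (CCGGAAG), the YY1 site or an E-box (CACGTG).
Mrpl1 (chr5:96209865-96210114, plus strand): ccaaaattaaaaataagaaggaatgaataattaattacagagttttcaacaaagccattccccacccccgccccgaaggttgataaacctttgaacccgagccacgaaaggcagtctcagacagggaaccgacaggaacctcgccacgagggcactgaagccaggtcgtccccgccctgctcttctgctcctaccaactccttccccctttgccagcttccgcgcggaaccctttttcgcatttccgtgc
Mrpl45 (chr11:97315466-97315715, plus strand): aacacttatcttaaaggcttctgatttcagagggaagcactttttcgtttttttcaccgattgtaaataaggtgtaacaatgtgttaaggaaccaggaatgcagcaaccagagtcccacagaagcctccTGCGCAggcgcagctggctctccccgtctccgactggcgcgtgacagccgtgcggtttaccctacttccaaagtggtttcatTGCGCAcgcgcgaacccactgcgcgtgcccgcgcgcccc
Mrps22 (chr9:98601680-98601929, minus strand): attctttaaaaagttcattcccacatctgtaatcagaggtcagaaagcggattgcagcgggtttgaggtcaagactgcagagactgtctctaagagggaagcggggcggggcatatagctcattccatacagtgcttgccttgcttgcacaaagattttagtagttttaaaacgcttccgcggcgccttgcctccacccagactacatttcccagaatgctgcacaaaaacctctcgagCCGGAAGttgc
Mrpl32 (chr13:14613038-14613287, minus strand): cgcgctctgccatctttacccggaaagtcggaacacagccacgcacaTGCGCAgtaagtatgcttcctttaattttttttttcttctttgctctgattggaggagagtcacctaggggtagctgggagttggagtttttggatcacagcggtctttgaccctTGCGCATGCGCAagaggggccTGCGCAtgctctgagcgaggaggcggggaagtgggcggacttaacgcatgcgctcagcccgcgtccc

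The Mrpl1 window held none of these letters. Mrpl45 held the NRF1 core beginning 121 and 39 bases before the start. Mrps22 held the ETS and GABP site 11 bases before it. Mrpl32, which fell, held a full NRF1 site 87 bases before the start, with overlapping cores at 88 and 82 bases and further cores at 203 and 67. Over windows of 250 bases before to 50 after the start, the ETS and GABP site was in 32.4% of the family's 71 windows and in 8.86% of all 32851 windows in the table. The NRF1 core was in 28.2% of the family's windows and 7.76% of all, the full NRF1 site, which can overlap the core, in 4.23% and 0.971%, the YY1 site in 7.04% and 0.852%, and the E-box in 9.86% and 7.15%. The windows were not matched for base composition. Within the family, the ETS and GABP site was in 31.8% of 22 windows of genes called higher with Cugbp1 siRNA and in 31.9% of 47 windows of the other tested genes. The NRF1 core was in 27.3% and 27.7% of these windows. The full NRF1 site was in 2 of 22 and 1 of 47, the YY1 site in 2 and 3, and the E-box in 0 and 7. Such counts are too small to compare. Some genes called higher with Cugbp1 siRNA, among them Mrpl13, Mrps35 and Mrpl38, had no window. Genes with several start sites were counted once per window, so these shares are not shares of genes. Mrpl2, which held the E-box, had 3 windows, and Mrpl48, which held the ETS and GABP site, had 4. A match describes letters in a window and not a bound factor.

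After Cugbp1 siRNA the mitochondrial ribosomal protein genes were mostly a little higher than with control siRNA. Limma called 30 of the 72, 28 higher and 2 lower, against 38.7% of all genes tested called in either direction, 26.0% higher and 12.7% lower. The share called was thus near that of all genes, at 41.7%. The fitted change was above 0 in 63 of the 72, against 62.3% of all genes, and its median was 0.15, against 0.05 for all genes. Called changes were small, from 0.13 to 0.49 in size, and 0 of the 72 were both called and at least 1.5-fold, against 0.854% of all genes. The arrays of the groups did not overlap in 41 genes, with 39 above the controls and 2 below, against 48.8% of all genes, 32.9% above and 15.9% below. In bulk RNA, fewer cells of a type and less RNA per cell cannot be told apart. An alternative chosen after the data were seen centred the gene values of each array on the median of all genes. It called 14 higher and 3 lower, against 1679 and 2839 of all 12646 genes, and kept 16 of the 30 calls. The family's median was then 0.07, still above 0, against -0.03 for all genes. The plot of changes by gene sets both siRNAs against the controls.

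**Figure D1:**
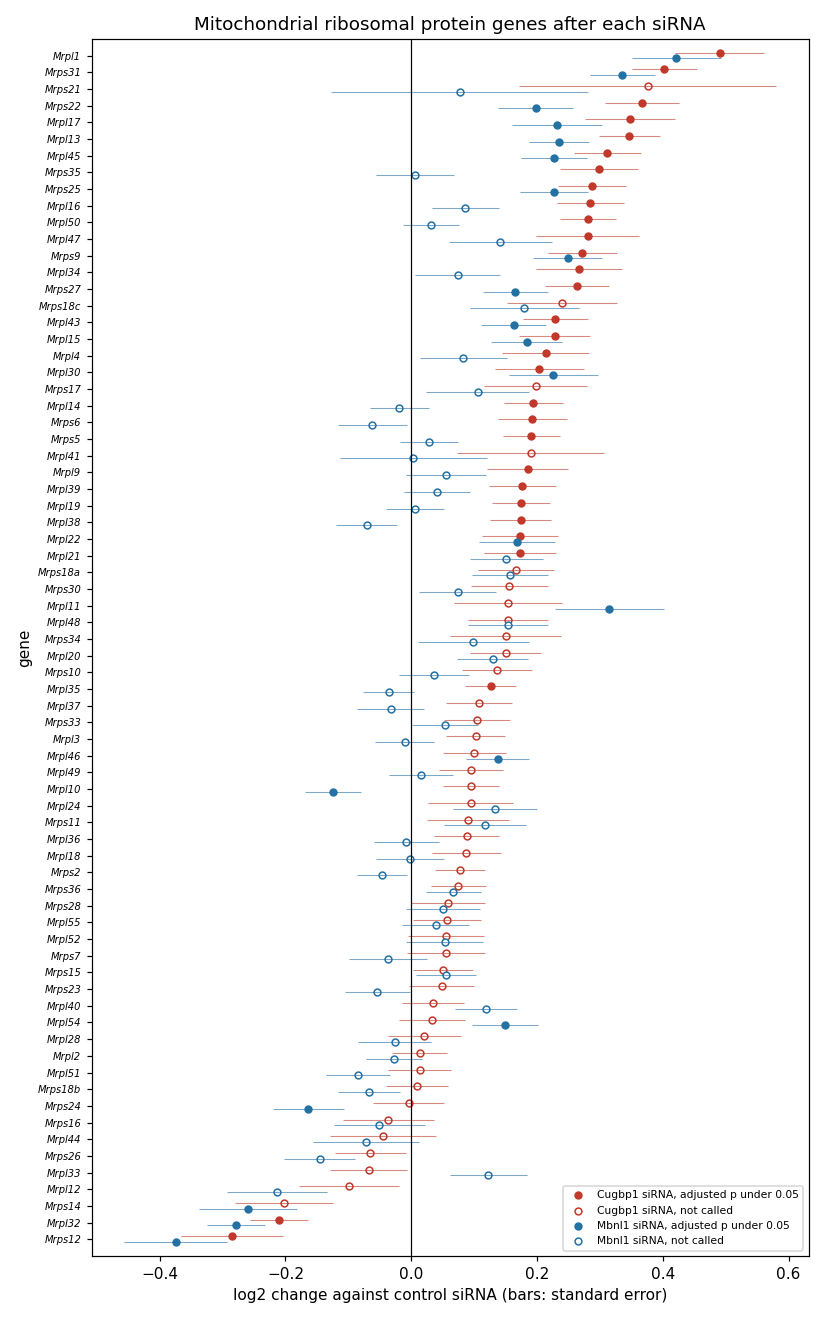
Log2 change against control siRNA (horizontal axis) for each of the 72 tested genes (vertical axis, ordered by the change with Cugbp1 siRNA), with bars of 1 standard error and filled points where the adjusted p was under 0.05. Cugbp1 siRNA points lie above 0 in 63 genes and Mbnl1 siRNA points in 48. With genes centred on the median gene the median was 0.07 and -0.02.

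Mrpl1, homologue of the bacterial protein L1 of the mobile stalk beside the exit site for tRNA, had the largest called change. Its values were 8.21, 8.18 and 7.97 with Cugbp1 siRNA, 8.04, 7.96 and 8.15 with Mbnl1 siRNA, and 7.66, 7.65 and 7.58 with control siRNA. All 6 target siRNA arrays lay above all 3 controls, and the arrays of both target siRNAs overlapped each other. Mrpl1 averaged 8.12 ± 0.13 with Cugbp1 siRNA and 7.63 ± 0.04 with control siRNA (SD, n = 3 each), a change of 0.49 (SE 0.07, Benjamini-Hochberg adjusted p from limma = 0.000964), and 8 of its 9 probe sets were higher. Mrps31, a small-subunit protein found only in mitochondria, read 7.90, 7.81 and 7.97 with Cugbp1 siRNA, 7.82, 7.80 and 7.86 with Mbnl1 siRNA, and 7.55, 7.49 and 7.44 with control siRNA. Again both target siRNAs lay above the controls without overlap. Its change with Cugbp1 siRNA was 0.40 (SE 0.05, Benjamini-Hochberg adjusted p from limma = 0.000608). Mrps22, a mitochondria-only protein of the small subunit in which human mutations cause a severe respiratory chain disease, read 9.28, 9.29 and 9.32 with Cugbp1 siRNA, 9.06, 9.08 and 9.23 with Mbnl1 siRNA, and 9.0, 8.83 and 8.96 with control siRNA. The 3 Cugbp1 siRNA arrays stood above the 3 Mbnl1 siRNA arrays, and these above the controls. The change of Mrps22 with Cugbp1 siRNA was 0.37 (SE 0.06, Benjamini-Hochberg adjusted p from limma = 0.00158), with all 7 probe sets higher.

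Large-subunit genes followed. Mrpl13, homologue of bacterial L13, read 9.93, 9.97 and 9.95 with Cugbp1 siRNA, 9.84, 9.84 and 9.83 with Mbnl1 siRNA, and 9.70, 9.55 and 9.56 with control siRNA. The groups formed separate ranges, Cugbp1 siRNA highest and control siRNA lowest. It changed by 0.35 with Cugbp1 siRNA (SE 0.05, Benjamini-Hochberg adjusted p from limma = 0.000824). Mrpl17, homologue of a bacterial protein at the exit of the tunnel, read 8.02, 7.85 and 7.79 with Cugbp1 siRNA, 7.82, 7.69 and 7.80 with Mbnl1 siRNA, and 7.59, 7.42 and 7.61 with control siRNA. Its Cugbp1 siRNA arrays were above the controls without overlap, and it changed by 0.35 (SE 0.07, Benjamini-Hochberg adjusted p from limma = 0.00487). Mrpl45, a mitochondria-only protein that helps to hold the ribosome at the inner membrane where its products are inserted, read 9.35, 9.42 and 9.45 with Cugbp1 siRNA, 9.28, 9.41 and 9.28 with Mbnl1 siRNA, and 9.15, 9.03 and 9.11 with control siRNA. Both target siRNAs were above control siRNA on every array. It changed by 0.31 with Cugbp1 siRNA (SE 0.05, Benjamini-Hochberg adjusted p from limma = 0.00196), in 9 of 9 probe sets. The promoter window of Mrpl45 printed above held the NRF1 core and that of Mrps22 the ETS and GABP site, while that of Mrpl1 held no match.

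Further down the order came Mrps35 (0.30, SE 0.06) and Mrps25 (0.29, SE 0.05), small-subunit proteins found only in mitochondria, and Mrpl16 (0.28, SE 0.05), homologue of bacterial L16 near the tRNA site. Limma with Benjamini-Hochberg gave them an adjusted p of 0.00527, 0.00339 and 0.00331. Mrps35 lost its call with the mean of probe sets (0.18, adjusted p = 0.0532) and Mrps25 with the filter at the 50th percentile (0.17, adjusted p = 0.0669). The other named genes above, and Mrps9 (0.27) and Mrpl50 (0.28), kept theirs under all 19 alternatives. Of the 9 genes below 0, Mrps12 and Mrpl32 were called and the other 7 were not.

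Mrps12 and Mrpl32 were lower with both siRNAs. Mrps12, homologue of the bacterial protein S12 at the decoding centre, read 7.28, 7.49 and 7.54 with Cugbp1 siRNA, 7.44, 7.21 and 7.40 with Mbnl1 siRNA, and 7.81, 7.64 and 7.72 with control siRNA. No target siRNA array reached the lowest control. It changed by -0.29 with Cugbp1 siRNA (SE 0.08, Benjamini-Hochberg adjusted p from limma = 0.021) and by -0.37 with Mbnl1 siRNA (SE 0.08, adjusted p = 0.00527), on 3 probe sets, all lower with either. Without the filter on weak signals these became -0.18 (adjusted p = 0.153) and -0.24 (adjusted p = 0.0641). With the filter at the 50th percentile the first was also -0.18 and not called (adjusted p = 0.120). Mrpl32, homologue of bacterial L32 and processed on import by the m-AAA protease before it joins the large subunit, read 8.52, 8.50 and 8.49 with Cugbp1 siRNA, 8.35, 8.48 and 8.47 with Mbnl1 siRNA, and 8.67, 8.72 and 8.74 with control siRNA. Again all 6 arrays of the target siRNAs lay below the 3 controls. It changed by -0.21 with Cugbp1 siRNA (SE 0.05, Benjamini-Hochberg adjusted p from limma = 0.0066) and by -0.28 with Mbnl1 siRNA (SE 0.05, adjusted p = 0.00128). The first of these lost its call without control siRNA replicate 2 (-0.17, adjusted p = 0.0534) and without the filter (-0.15, adjusted p = 0.0667).

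**Figure D2:**
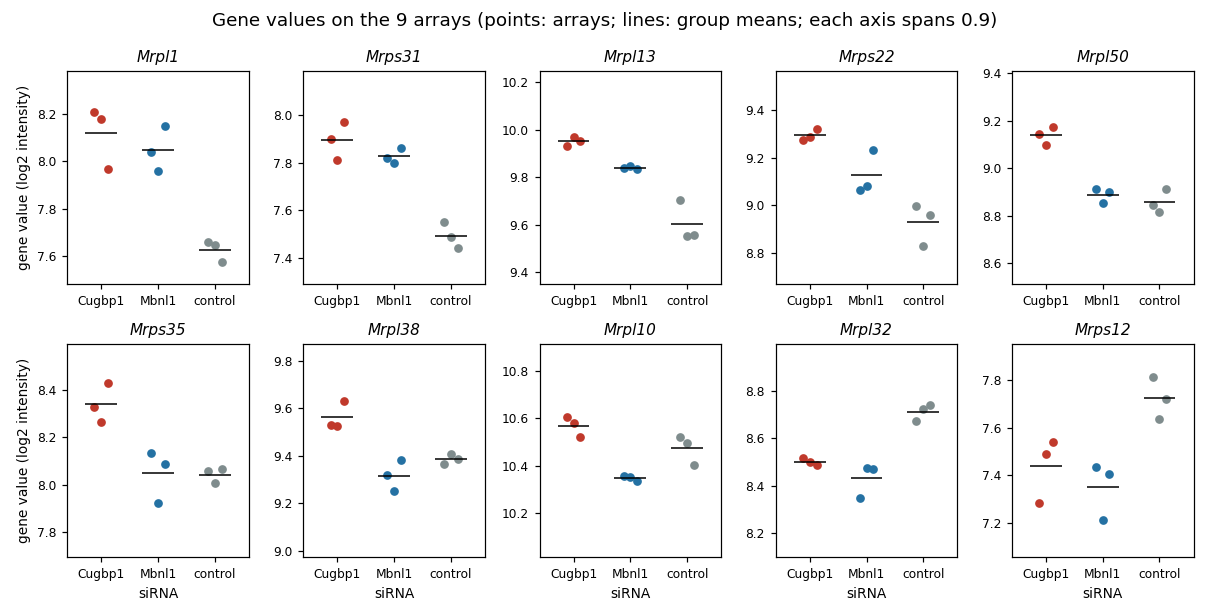
Gene values (log2 intensity, vertical axes, each spanning the same range of 0.9) of 10 genes on the 9 arrays, by siRNA; points are arrays and lines are group means. Mrpl1, Mrps31, Mrpl13 and Mrps22 lie above the controls with both target siRNAs, Mrpl50, Mrps35 and Mrpl38 with Cugbp1 siRNA only without overlap, Mrpl10 is lowest with Mbnl1 siRNA, and Mrpl32 and Mrps12 lie below the controls with both.

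Some members hardly moved. With Cugbp1 siRNA the smallest changes were those of Mrps24, homologue of bacterial S3 (-0.00, 95% interval -0.13 to 0.12), Mrps18b, one of the mitochondrial homologues of bacterial S18 (0.01, -0.10 to 0.12), and Mrpl51, a mitochondria-only protein (0.01, -0.10 to 0.13). Mrps21, homologue of bacterial S21 and named here after its values were seen, read 11.39, 10.59 and 10.33 with Cugbp1 siRNA, 10.52, 10.42 and 10.48 with Mbnl1 siRNA, and 10.44, 10.35 and 10.40 with control siRNA. Its Cugbp1 siRNA replicate 1 stood far above the other 8 arrays. The change was 0.38 with Cugbp1 siRNA but was not called (SE 0.20, Benjamini-Hochberg adjusted p from limma = 0.164).

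With Mbnl1 siRNA the median change of the family over all levels was close to that of all genes, with genes called in both directions. Limma called 21 of 72, 16 higher and 5 lower, against 41.5% of all genes, 26.9% higher and 14.6% lower. That is 29.2% of the family, below the share of all genes. The fitted change was above 0 in 48 of the 72, against 59.0% of all genes, with a median of 0.05 against 0.04 for all genes. Groups did not overlap in 28 genes, 20 above and 8 below, against 57.5% of all genes, 37.3% above and 20.3% below, and 0 of 72 were called and at least 1.5-fold, against 1.64%. The direction of this shift was not stable to the scaling of the arrays. The median was 0.02 with quantile normalisation repeated (9 called higher and 7 lower), against 0.01 for all genes (2795 and 2282). Centring each array on its median probe set gave 0.09 (21 and 3), against 0.08 (4232 and 1433). Centring genes on the median gene gave -0.02 (7 and 11), against -0.03 (2201 and 3200). All genes thus moved with the scaling too. The family's count also fell to 11 without control siRNA replicate 2, 12 without Mbnl1 siRNA replicate 1 and 11 without Mbnl1 siRNA replicate 3. Calls over all genes fell from 5245 to 4754, 4423 and 3888 in the same order.

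Both comparisons use the same 3 control arrays, so their values are set side by side only. Mrpl1 changed by 0.42 with Mbnl1 siRNA (SE 0.07, Benjamini-Hochberg adjusted p from limma = 0.00138), with 9 of 9 probe sets higher. Mrps31 changed by 0.34 (SE 0.05, adjusted p = 0.000903). Mrps9, homologue of bacterial S9, read 7.89, 7.95 and 7.93 with Cugbp1 siRNA, 7.94, 7.88 and 7.88 with Mbnl1 siRNA, and 7.58, 7.60 and 7.77 with control siRNA. The arrays of both target siRNAs lay above the controls and overlapped each other, and its change was 0.25 with Mbnl1 siRNA (SE 0.05, Benjamini-Hochberg adjusted p from limma = 0.00545). Mrpl13 changed by 0.24, Mrpl17 by 0.23 and Mrps25 by 0.23. Mrpl11, homologue of bacterial L11 at the base of the factor-binding stalk, read 8.74, 9.08 and 9.03 with Cugbp1 siRNA, 9.17, 9.10 and 9.06 with Mbnl1 siRNA, and 8.76, 8.71 and 8.91 with control siRNA. Its Mbnl1 siRNA arrays were above the controls without overlap, whereas 1 of the 3 Cugbp1 siRNA arrays lay among the controls. The change of 0.32 with Mbnl1 siRNA was called (SE 0.09, Benjamini-Hochberg adjusted p from limma = 0.0152). It was not called without Mbnl1 siRNA replicate 1 (0.21, adjusted p = 0.137) or control siRNA replicates 1 (0.29, adjusted p = 0.0596) or 2 (0.27, adjusted p = 0.0565). Nor was it called, at 0.27, without the filter (adjusted p = 0.121) or with the filter at the 50th percentile (adjusted p = 0.0950). Mrps25 lost its call with the filter at the 50th percentile (0.11, adjusted p = 0.201) and with the mean of probe sets (0.14, adjusted p = 0.0549). Mrps22, at 0.20, lost its call without control siRNA replicate 2 (0.16, adjusted p = 0.0509) or Mbnl1 siRNA replicate 3 (0.16, adjusted p = 0.071). Mrpl17 lost its call without control siRNA replicate 2 (0.17, adjusted p = 0.0959) or Mbnl1 siRNA replicates 1 (0.19, adjusted p = 0.102) or 3 (0.19, adjusted p = 0.106).

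Besides Mrps12 and Mrpl32, the genes called lower with Mbnl1 siRNA were Mrps14, Mrps24 and Mrpl10. Mrps14, homologue of bacterial S14, changed by -0.26 (SE 0.08, Benjamini-Hochberg adjusted p from limma = 0.0233), but by 0.02 without the filter on weak signals, and 2 of its 4 probe sets were higher. Its call was also lost without control siRNA replicates 2 (-0.24, adjusted p = 0.0611) or 3 (-0.23, adjusted p = 0.0683) or Mbnl1 siRNA replicate 3 (-0.24, adjusted p = 0.13). Mrps24 changed by -0.16 and Mrpl10, homologue of bacterial L10 of the stalk base, by -0.12, and these calls were lost under 10 and 11 of 19 alternatives. Closest to 0 were Mrpl18 (-0.00, 95% interval -0.12 to 0.12), Mrpl41 (0.00, -0.26 to 0.26) and Mrpl19 (0.01, -0.10 to 0.11). Across both comparisons 15 genes were called in each, 13 higher in both and 2 lower in both, and 36 of 72 in neither. Over all 12646 genes 3456 were called in both, 2236 higher in both and 1154 lower in both, and 5964 in neither. The share called in both was thus not higher in the family than among all genes. Its share higher in both was about that of all genes, and its share lower in both was smaller.

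Set directly against each other, without the control arrays in the difference, Cugbp1 siRNA gave higher values than Mbnl1 siRNA in most of the family. The fitted difference was above 0 in 62 of 72 genes, or 86.1%, against 52.7% of all genes tested, with a median of 0.08 against 0.01. Limma called 9 of 72, all higher with Cugbp1 siRNA, against 9.34% of all genes called, 4.27% higher and 5.07% lower. Arrays did not overlap in 25 genes, 22 higher and 3 lower with Cugbp1 siRNA, against 29.5% of all genes, 15.1% higher and 14.4% lower, and 0 of 72 were called and at least 1.5-fold, against 0.467%. The side held under each scaling tried, with 60 to 62 genes above 0 and a median of 0.08 to 0.09. Without Mbnl1 siRNA replicate 2 there were 54 of 72 above 0, and the median was 0.05. The count of calls was less steady, at 4 without Cugbp1 siRNA replicate 2 and 3, 4 and 3 without Mbnl1 siRNA replicates 1, 2 and 3. It was 3 with no filter on weak signals. Calls over all genes fell too, from 1181 to 764, 670, 618 and 671 without these arrays in the same order. They fell to 639 with no filter.

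**Figure D3:**
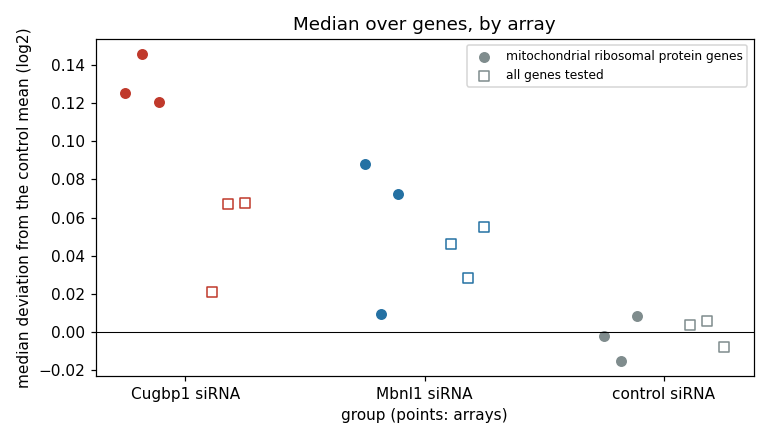
Median over genes of the deviation from the control mean (log2, vertical axis) on each of the 9 arrays, by group, for the 72 genes of the family (filled circles) and all 12646 genes tested (open squares). The family's medians are 0.12 to 0.15 with Cugbp1 siRNA, 0.01 to 0.09 with Mbnl1 siRNA and -0.01 to 0.01 with control siRNA, and the medians of all genes are 0.02 to 0.07, 0.03 to 0.05 and -0.01 to 0.01.

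The spread over arrays shows the same order. The family's median deviation from the control mean was 0.13, 0.15 and 0.12 on the Cugbp1 siRNA arrays, 0.09, 0.01 and 0.07 on the Mbnl1 siRNA arrays, and -0.00, -0.01 and 0.01 on the control arrays. Cugbp1 siRNA arrays were all above Mbnl1 siRNA arrays, of which replicate 2 lay next to the controls. Over all genes the medians were 0.02, 0.07 and 0.07, then 0.05, 0.03 and 0.05, and then 0.00, 0.01 and -0.01, so that the target siRNAs overlapped there.

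The comparison with all genes depended on the level of expression. The 72 genes were split by their mean over all arrays into 3 bins of 24, and all genes in the same ranges of level, 5761, 2727 and 2773 of them from low to high, were set beside them. With Cugbp1 siRNA the family's median changes were 0.19, 0.15 and 0.10 from low to high, against 0.03, 0.10 and 0.07 for all genes. Shares called higher were 45.8%, 37.5% and 33.3%, against 25.4%, 36.1% and 26.2%. With Mbnl1 siRNA the medians were 0.13, 0.04 and 0.03, against 0.02, 0.09 and 0.06 for all genes, so the family lay above all genes in the low bin and below them in the other bins. Shares called higher with Mbnl1 siRNA were 37.5%, 16.7% and 12.5%, against 26.2%, 35.9% and 27.1%. Between the siRNAs the family stood above all genes in each bin, with 83.3%, 87.5% and 87.5% of differences above 0, against 53.9%, 53.0% and 52.0%. The bins were not tested against each other.

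Mrps35 had the largest called difference. Its values were 8.33, 8.27 and 8.43 with Cugbp1 siRNA, 8.13, 7.92 and 8.09 with Mbnl1 siRNA, and 8.06, 8.01 and 8.06 with control siRNA. The Cugbp1 siRNA arrays stood above the other 6, while Mbnl1 siRNA and control siRNA overlapped. The difference was 0.29 (SE 0.06, Benjamini-Hochberg adjusted p from limma = 0.0166), and 0.23 without Mbnl1 siRNA replicate 2, where the call was lost (adjusted p = 0.0584). The call was also lost, at 0.27, without the filter (adjusted p = 0.0868) and with the filter at the 50th percentile (adjusted p = 0.0604). Mrpl50, a mitochondria-only protein of the large subunit, read 9.14, 9.10 and 9.17 with Cugbp1 siRNA, 8.91, 8.85 and 8.90 with Mbnl1 siRNA, and 8.84, 8.81 and 8.91 with control siRNA. It was high with Cugbp1 siRNA alone, by 0.25 over Mbnl1 siRNA (SE 0.04, Benjamini-Hochberg adjusted p from limma = 0.00682). Mrpl38, also found only in mitochondria, read 9.53, 9.53 and 9.63 with Cugbp1 siRNA, 9.32, 9.25 and 9.38 with Mbnl1 siRNA, and 9.37, 9.41 and 9.39 with control siRNA. Its Cugbp1 siRNA arrays were highest without overlap, and the difference was 0.25 (SE 0.05, Benjamini-Hochberg adjusted p from limma = 0.0116), higher in 12 of 12 probe sets. The calls of Mrpl50 and Mrpl38 held under all 19 alternatives. Mrps6, homologue of bacterial S6, read 11.55, 11.49 and 11.39 with Cugbp1 siRNA, 11.19, 11.31 and 11.16 with Mbnl1 siRNA, and 11.28, 11.29 and 11.29 with control siRNA. Here too the Cugbp1 siRNA arrays lay above all others, by 0.25 over Mbnl1 siRNA (SE 0.05, Benjamini-Hochberg adjusted p from limma = 0.0176). Mrpl10 read 10.60, 10.58 and 10.52 with Cugbp1 siRNA, 10.36, 10.36 and 10.34 with Mbnl1 siRNA, and 10.52, 10.50 and 10.41 with control siRNA. It was lowest with Mbnl1 siRNA, and the difference was 0.22 (SE 0.05, Benjamini-Hochberg adjusted p from limma = 0.0139), with 8 of 8 probe sets on that side. The other called genes, homologues of bacterial large-subunit proteins, were Mrpl14 (0.21), Mrpl16 (0.20), Mrpl19 (0.17) and Mrpl35 (0.16). The calls of Mrps6 and Mrpl10 were lost without Mbnl1 siRNA replicate 1 (adjusted p = 0.0701 and 0.0512) or replicate 3 (0.0696 and 0.0563). That of Mrps6 was also lost without Cugbp1 siRNA replicate 2 (0.0516) and without the filter (0.0504). Calls of the last 4 genes were lost in more of the alternatives.

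**Figure D4:**
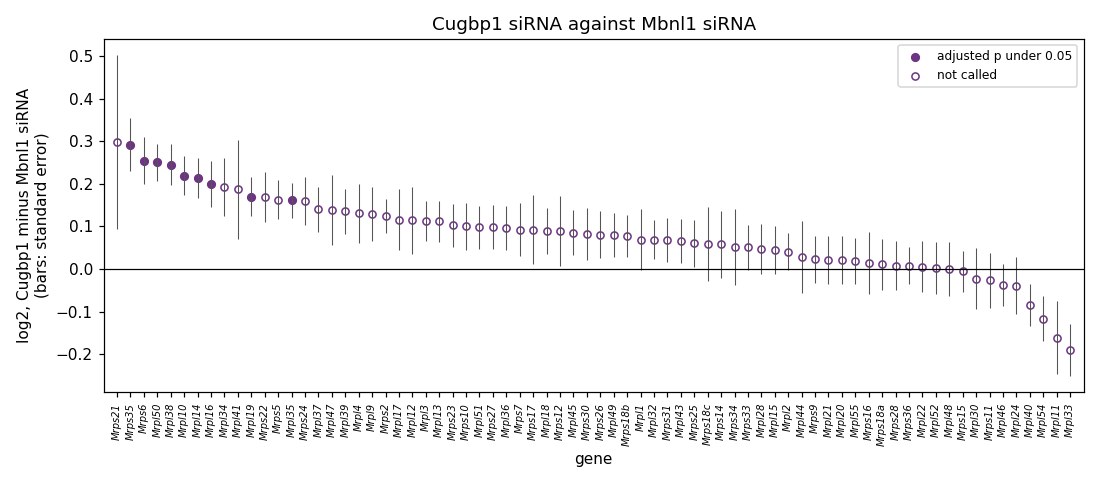
Difference between Cugbp1 siRNA and Mbnl1 siRNA (log2, vertical axis, bars of 1 standard error) for each of the 72 genes (horizontal axis, ordered by the difference), with filled points where the adjusted p was under 0.05. Of the 72 points 62 lie above 0, and all 9 filled ones do.

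Mrpl33, homologue of bacterial L33 and named here after its values were seen, was at the other end. It read 9.0, 8.90 and 8.84 with Cugbp1 siRNA, 9.09, 9.03 and 9.19 with Mbnl1 siRNA, and 9.06, 8.91 and 8.97 with control siRNA. The Cugbp1 siRNA arrays were below the Mbnl1 siRNA arrays without overlap, but the difference of -0.19 was not called (SE 0.06, Benjamini-Hochberg adjusted p from limma = 0.0833).

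Counts by subunit are read against the 26.0% of all genes called higher and 12.7% called lower with Cugbp1 siRNA, and the 26.9% and 14.6% with Mbnl1 siRNA. With Cugbp1 siRNA, 8 of 26 small-subunit genes were called higher and 1 lower (median 0.12), and 20 of 45 large-subunit genes were called higher and 1 lower (median 0.15). That is 30.8% of the small subunit called higher, near the share of all genes, and 44.4% of the large one. With Mbnl1 siRNA, 5 of 26 small-subunit genes were higher and 3 lower (median 0.04), and 11 of 45 large-subunit genes were higher and 2 lower (median 0.07), and these shares called higher, 19.2% and 24.4%, were below that of all genes. Between the siRNAs 24 of 26 small-subunit and 37 of 45 large-subunit differences were above 0, against 52.7% of all genes. By ancestry, 18 of 45 genes with a bacterial homologue were called higher and 2 lower with Cugbp1 siRNA (median 0.15), or 40.0% higher, and 10 of 26 mitochondria-only genes were called higher and 0 lower (median 0.15), or 38.5%. With Mbnl1 siRNA the counts were 8 higher and 5 lower of 45 (median 0.06), or 17.8% higher, and 8 higher and 0 lower of 26 (median 0.05), or 30.8%. The differences between these classes were not tested.

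Single probe sets that departed from their gene were about as frequent in the family as among all genes. In 68 members with at least 4 probe sets above the filter, 535 probe sets were tested for a change unlike that of their gene value on the same arrays. Limma with Benjamini-Hochberg called 29 of them with Cugbp1 siRNA, or 5.42%, against 5.11% of all 158713 probe sets tested, and 55 with Mbnl1 siRNA, or 10.3%, against 9.54%. Between the siRNAs it called 0, against 0.0769% of all, while 21 had an unadjusted p under 0.05 and diffSplice called 1. These counts depended on single arrays. For the fits without 1 array, shares over all probe sets were not computed, so whether the falls are particular to the family is not known. With Cugbp1 siRNA it was 14 without control siRNA replicate 3, and 18, 13 and 9 without Cugbp1 siRNA replicates 1, 2 and 3. With Mbnl1 siRNA it was 34 and 31 without control siRNA replicates 2 and 3, and 25, 25 and 19 without Mbnl1 siRNA replicates 1, 2 and 3. A call says that a probe set differs from its gene and not which exon it covers. The filter used the mean over all 9 arrays, so a probe set could pass it while weak in the controls. A probe set of Mrpl17, called upward with both siRNAs, read 6.11, 6.54 and 6.49 with control siRNA, below the filter. It read 7.14 to 7.89 with the target siRNAs. A probe set of Mrps18a, also called upward with both, read 9.01 to 9.30 with control siRNA. How far weak control signals shaped the counts of departures was not tested.

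The clearest was a probe set of Mrpl38. It read 9.89, 9.65 and 9.60 with Cugbp1 siRNA, 9.49, 9.13 and 9.55 with Mbnl1 siRNA, and 10.26, 10.24 and 10.44 with control siRNA. All 6 target siRNA arrays were below the controls, and relative to its gene it changed by -0.77 with Cugbp1 siRNA (SE 0.11, Benjamini-Hochberg adjusted p from limma = 0.00121) and by -0.85 with Mbnl1 siRNA (SE 0.11, adjusted p = 0.000341). One of Mrps15, homologue of bacterial S15, read 9.14, 9.38 and 8.85 with Cugbp1 siRNA, 9.37, 9.02 and 9.15 with Mbnl1 siRNA, and 9.79, 9.65 and 9.85 with control siRNA. It lay below the controls with both target siRNAs, by -0.69 (SE 0.12) and -0.64 (SE 0.12) relative to a gene whose own values were 0.05 and 0.06, neither called. One of Mrps35 read 7.84, 8.22 and 7.46 with Cugbp1 siRNA, 7.66, 7.45 and 7.95 with Mbnl1 siRNA, and 9.05, 8.32 and 9.64 with control siRNA. It departed by -1.46 (SE 0.26) with Cugbp1 siRNA and -1.32 (SE 0.26) with Mbnl1 siRNA, though the control arrays spread widely. In Mrps14, 1 probe set departed downward by -0.53 with Cugbp1 siRNA and -0.42 with Mbnl1 siRNA and another upward by 0.76 and 0.87, so the gene value rests on probe sets that disagree. With Cugbp1 siRNA and Mbnl1 siRNA, a probe set of Mrpl4, homologue of bacterial L4 in the tunnel wall, departed by -0.62 and -0.53, and one of Mrpl30, homologue of bacterial L30, by -0.41 and -0.50. One of Mrps18a, a homologue of bacterial S18, departed by 0.39 and 0.54. Mrps30, a mitochondria-only protein, had one at -0.47 and -0.41 and another at 0.70 and 0.84.

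Other genes of translation in mitochondria were looked at in the same fit over all genes, of which 26.0% were called higher with Cugbp1 siRNA and 26.9% with Mbnl1 siRNA. Their shares called higher were 54.5% and 36.4% for translation factors and 57.1% and 38.1% for assembly genes. Of 11 tested translation factors of mitochondria, 6 were called higher and 0 lower with Cugbp1 siRNA (median 0.20), and 4 higher and 0 lower with Mbnl1 siRNA (median 0.12). Mtif2, the initiation factor that brings the first tRNA, read 7.40, 7.51 and 7.64 with Cugbp1 siRNA, 7.37, 7.39 and 7.37 with Mbnl1 siRNA, and 7.21, 7.05 and 7.07 with control siRNA. All target siRNA arrays were above the controls, and it changed by 0.41 with Cugbp1 siRNA (SE 0.07, Benjamini-Hochberg adjusted p from limma = 0.00155) and by 0.27 with Mbnl1 siRNA. Gfm1, the elongation factor that moves the ribosome along, changed by 0.27 and 0.20, Guf1, a GTPase that binds the ribosome, by 0.27 and 0.24, and the release factor Mtrf1l by 0.23 and 0.25. Of 21 genes for assembly of the ribosome and modification of its rRNA, 12 were higher and 1 lower with Cugbp1 siRNA (median 0.17), and 8 higher and 0 lower with Mbnl1 siRNA (median 0.07). Nsun4, an rRNA methyltransferase that joins the subunits with Mterf4, changed by 0.46 and 0.51, the GTPase Noa1 by 0.45 and 0.22, and Mettl15, a methyltransferase of the small-subunit rRNA, by 0.35 and 0.29. Tfb1m, which dimethylates that rRNA, went against the family between the siRNAs. It read 8.07, 8.13 and 8.13 with Cugbp1 siRNA, 8.33, 8.26 and 8.31 with Mbnl1 siRNA, and 7.80, 7.86 and 7.88 with control siRNA. The groups formed separate ranges with Mbnl1 siRNA highest, and the difference was -0.19 (Benjamini-Hochberg adjusted p from limma = 0.0216).

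Of 16 mitochondrial aminoacyl-tRNA synthetases, which charge the tRNAs, 8 were higher and 0 lower with Cugbp1 siRNA (median 0.16) and 5 higher and 0 lower with Mbnl1 siRNA (median 0.10). The second of these, 31.3%, is near the 26.9% of all genes called higher, and the first is above the 26.0%. The largest were Nars2 (0.39 and 0.34), Rars2 (0.37 and 0.30), Yars2 (0.35 and 0.11, the second not called) and Hars2 (0.34 and 0.17). Of 18 genes of mitochondrial transcription and RNA, 9 were higher and 0 lower with Cugbp1 siRNA (median 0.14), and 7 higher and 1 lower with Mbnl1 siRNA (median 0.13), or 38.9% higher. Among them were Fastkd1, an RNA-binding protein (0.41 and 0.35), Tefm, the elongation factor of transcription (0.38 and 0.21), Mtpap, the poly(A) polymerase (0.35 and 0.27), and Prorp, which cuts tRNA precursors (0.21 and 0.31). The gene lower with Mbnl1 siRNA was Polrmt, the mitochondrial RNA polymerase (-0.17), and it was higher with Cugbp1 siRNA than with Mbnl1 siRNA by 0.20 (Benjamini-Hochberg adjusted p from limma = 0.0255). Polrmt was named after its values were seen. Of the 6 tested mitoribosomal proteins with other names, 2 were higher with Cugbp1 siRNA, Ptcd3 (0.28) and Dap3 (0.18), both of the small subunit, which at 33.3% is near the share of all genes.

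**Figure D5:**
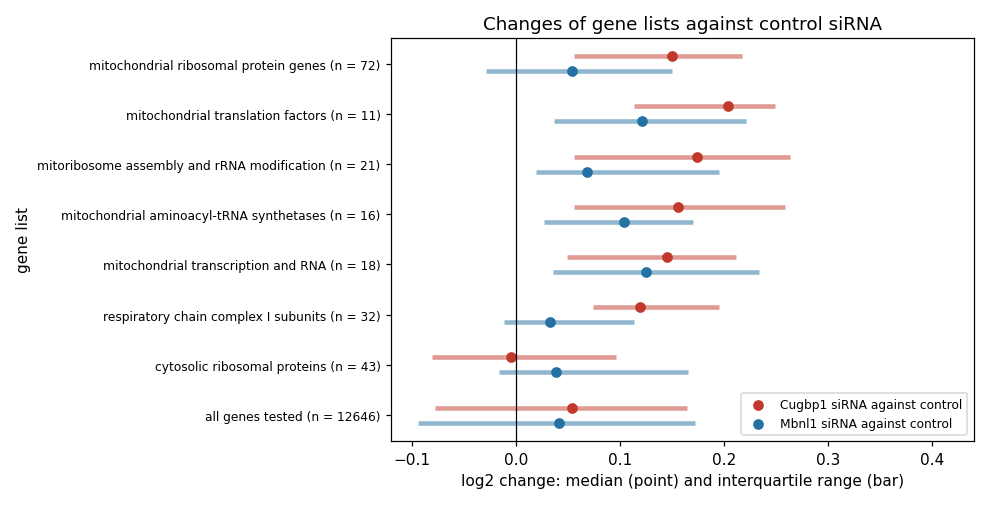
Log2 change against control siRNA (horizontal axis) of the family, 6 other lists and all genes tested (vertical axis, with the number of genes), as the median (point) and interquartile range (bar) for each target siRNA. The medians of the family and the 4 lists that serve the mitochondrial ribosome are 0.14 to 0.20 with Cugbp1 siRNA and 0.05 to 0.13 with Mbnl1 siRNA, and those of cytosolic ribosomal proteins are -0.01 and 0.04.

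Of 12 regulators of mitochondrial biogenesis, 3 were higher and 1 lower with either siRNA, which at 25% higher is about the share of all genes (26.0% with Cugbp1 siRNA and 26.9% with Mbnl1 siRNA). Ppargc1a, the coactivator PGC-1α that drives mitochondrial gene programmes, read 7.94, 8.23 and 8.24 with Cugbp1 siRNA, 7.78, 7.75 and 7.70 with Mbnl1 siRNA, and 7.28, 7.09 and 7.05 with control siRNA. The groups formed 3 separate ranges. It changed by 1.00 with Cugbp1 siRNA (SE 0.08, Benjamini-Hochberg adjusted p from limma = 9.64e-05) and by 0.61 with Mbnl1 siRNA (SE 0.08, adjusted p = 0.000561), and the difference between the siRNAs was 0.39 (adjusted p = 0.0182). The growth regulator Myc changed by 0.35 and 0.20, Gabpa, the DNA-binding subunit of GABP, by 0.18 and 0.33, and Ppara, a nuclear receptor of fatty acid oxidation, by -0.22 and -0.26, all called.

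Complex I, whose core subunits in part come from this ribosome, and the cytosolic ribosome were looked at beside it. Of 32 tested complex I subunits of the respiratory chain, 11 were higher and 0 lower with Cugbp1 siRNA (median 0.12) and 2 higher and 1 lower with Mbnl1 siRNA (median 0.03). These are 34.4% and 6.25% called higher, against 26.0% and 26.9% of all genes. Between the siRNAs 26 of 32 differences were above 0, against 52.7% of all genes, and 4 were called, all higher with Cugbp1 siRNA. Ndufb8 changed by 0.28 and 0.19, Ndufb5 by 0.28 and 0.14, Ndufs1 by 0.27 and 0.13 and Ndufa9 by 0.25 and 0.03 with Cugbp1 siRNA and Mbnl1 siRNA, and of the second values only that of Ndufb8 was called. Of 43 tested cytosolic ribosomal protein genes, 5 were higher and 1 lower with Cugbp1 siRNA (median -0.01) and 11 higher and 1 lower with Mbnl1 siRNA (median 0.04). The 11.6% called higher with Cugbp1 siRNA is below the share of all genes, and the 25.6% with Mbnl1 siRNA is about that share. Between the siRNAs 7 of these 43 differences were above 0, against 52.7% of all genes, with a median of -0.05, and 1 was called, lower with Cugbp1 siRNA. The named ones were Rpl31 (-0.35 and -0.09), Rps4l (-0.22 and -0.34), Rps25 (0.15 and 0.26) and Rps9 (0.22 and 0.24), of which Rpl31 was called with Cugbp1 siRNA only, Rps4l with Mbnl1 siRNA only and the other two with both. Cytosolic ribosomal protein genes have near-identical processed copies in the genome, so their probe sets can pick up more than 1 gene and their values are uncertain.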

How the data were processed

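The deposited table held RMA intensities of probe sets on a linear scale, 1 column per array. Per the submitters' processing notes the authors used RMA in Affymetrix Expression Console with the mm9 build, with no versions stated there. From there, log2 of the deposited intensities was taken. Probe sets with more than 1 platform symbol were left out, which removed 10 shared by Mrpl53 and Ccdc142, 6 shared by Mrpl27 and EG622268 and 2 shared by Mrps6 and Slc5a3. Symbols were brought up to date with RefSeq's gene table. Probe sets whose mean over the 9 arrays was above the 75th percentile were kept, 549 of the family's 713, and genes with at least 3 of them were summarised by Tukey's median polish. Group means were fitted over all 9 arrays with limma 3.58.1 in R 4.3.3, with tables read by the data.table package, version 1.17.8, and p-values were adjusted by Benjamini-Hochberg over all genes. Departures were tested as probe set minus gene value, with a mean-variance trend, in genes with at least 4 kept probe sets. The steps were tested on values simulated for all 9 arrays, with changes added to the simulated Cugbp1 siRNA arrays. The gene test recovered 28.4% of 67 genes changed 1.2-fold, 88.1% of 67 at 1.5-fold and 98.5% of 66 at 2-fold. Small changes were thus often missed there. The test of departing probe sets recovered 37.3% of 67 changed 1.5-fold, 70.1% of 67 at 2-fold and 92.4% of 66 at 3-fold. That run had 153 gene calls among 12646 genes, 10 of them on genes with no change added. Its calls were far fewer than in the data, so its rates do not carry over directly. Samples were grouped by GEO's labels. Array number limits the precision, at 3 per group.

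The members and lists were chosen with earlier results of these data known. The text names up to 10 called genes with the largest change per comparison, the 3 with the smallest change against control, up to 8 with departing probe sets, those not tested, and up to 4 called genes of each list. Genes outside this rule are said to be so. Deviations of arrays with the same replicate number correlated at -0.10 to 0.12 (9 pairs of arrays), so the numbers were not taken as pairs. Alternatives were 3 scalings, no filter or a filter at the 50th percentile, the mean of probe sets, a mean-variance trend, at least 5 probe sets, fits on only the groups compared, a replicate block, diffSplice for departures, and leaving out each array.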

Additional observations from a re-analysis of the deposited data

How the results depend on the processing

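Gene values centred on the median gene were an alternative chosen after the data were seen. They gave 17 called genes with Cugbp1 siRNA, against 4518 of all genes. The medians were 0.0691 with Cugbp1 siRNA and -0.0208 with Mbnl1 siRNA, against -0.0276 and -0.0337 for all genes. Quantile normalisation repeated gave medians of 0.116 and 0.0159, against 0.0301 and 0.0130 for all genes. Centring each array on its median probe set gave 0.185 and 0.0931, against 0.0896 and 0.0758 for all genes. The mean of probe sets gave a median of 0.0901 with Mbnl1 siRNA, against 0.0568 for all genes. Without the filter on weak signals 11 genes were called with Mbnl1 siRNA and 3 between the siRNAs, against 5281 and 639 of all genes. With the filter at the 50th percentile 5 were called between them, against 867 of all genes. Mrps14, at -0.26 with Mbnl1 siRNA, turned to 0.0193 without the filter. The replicate block called 29, 17 and 6 genes with Cugbp1 siRNA, with Mbnl1 siRNA and between them, against 4539, 4982 and 875 of all genes. Leaving out 1 array gave 21 to 34, 11 to 23 and 3 to 13 called genes, and medians of 0.13 to 0.15, 0.04 to 0.08 and 0.05 to 0.10. Calls over all genes then ran from 3485 to 5516, 3888 to 6022 and 618 to 1162. Departing probe sets numbered 9 to 36 with Cugbp1 siRNA, 19 to 56 with Mbnl1 siRNA and 25 to 61 in either when 1 array was left out. Counts over all probe sets were not computed for those fits. The diffSplice alternative called 1 between the siRNAs. Of named calls in the family, 9 of 20 with Cugbp1 siRNA, 6 of 15 with Mbnl1 siRNA and 2 of 9 between them held under every alternative. For genes of the other lists, such as Ppargc1a and Mtif2, the alternatives were not tallied. Weak probe sets and 3 arrays per group limit small changes. The cause of these shifts was not tested.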
